A study of Mus musculus with 12 samples.

Results

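Nonmuscle myosin II is the motor of actin cables, the cell cortex and the cleavage furrow. Its genes were followed here by name: 3 heavy chain genes (Myh9, Myh10 and Myh14), 3 regulatory light chain genes (Myl9, Myl12a and Myl12b) and the essential light chain gene Myl6. The 7 symbols matched 8 of the 55536 rows of the count table, because 2 Ensembl identifiers carry the symbol Myl12b. The set was put together knowing that Myh10 counts separated the tumour genotypes without overlap. The genotype values of the members are therefore given as a description, and the count of members called between genotypes is printed beside the share of all genes with nothing read from it.

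Total RNA of 11 mouse tumours and 1 wild-type (WT) skeletal muscle was sequenced after ribosomal depletion to compare 2 ways of expressing the EWSR1-ATF1 fusion, the driver of clear cell sarcoma. In 5 tumours, called translocation tumours here, the alleles were HprtCre, Ewsr1-loxP and Atf1-loxP, so that Cre made from the Hprt locus could join the endogenous genes. In 6 tumours, called Rosa26 tumours, the allele was Rosa26-LSL-EWSR1-ATF1, a fusion cDNA behind a loxP-flanked stop, and the labels name no Cre driver for them. All tumours were collected at primary tumour morbidity with no drug given, and the sources used here give no strain, age, tumour site or number of animals. Cre made from the Hprt locus is not restricted to a cell type, and the cells in which either tumour began are not named.

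A nonmuscle myosin II molecule is a hexamer of a heavy chain pair, an essential light chain pair and a regulatory light chain pair. The heavy chain sets the isoform: Myh9 encodes IIA, which turns over fast and drives contraction, Myh10 encodes IIB, which holds tension longer and is abundant in brain and heart, and Myh14 encodes IIC, found in epithelia and other tissues. Phosphorylation of the regulatory light chain, by myosin light chain kinase among others, switches the motor on, and a phosphatase built on a myosin-binding subunit switches it off.

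Library totals spanned 2.96 to 21.2 M counts (translocation) and 6.82 to 21.5 M counts (Rosa26), and the muscle library held 25.04 M. Genes of ribosomal sequence took 37.8% of the counts of translocation tumour 2, the shallowest library, and 29.999% of those of Rosa26 tumour 4, against 0.758 to 7.38% elsewhere. Atf1, one of the engineered loci, stood at 48.2 ± 13.0 CPM (SD, n = 5) in the translocation tumours and at 22.4 ± 2.65 CPM (SD, n = 6) in the Rosa26 tumours. Gt(ROSA)26Sor, the transcript of the other locus, stood at 15.7 ± 6.35 and 2.46 ± 2.68 CPM. The 7 melanocyte genes summed to 9.70 to 464 CPM in the translocation and 15.7 to 54.9 CPM in the Rosa26 tumours. Of these, Tyrp1 and Mlana were at or near 0 in all tumours and the highest Tyr value was 0.438 CPM, while Dct reached 300.1 and Mitf 163 CPM in translocation tumour 5. The skeletal muscle genes summed to 270286 CPM in the muscle library. The same muscle sum was 33620 CPM in Rosa26 tumour 1, 3326 in translocation tumour 2 and 1888 in Rosa26 tumour 3, and below 24 in the other 8 tumours. By Xist and Y-linked reads, 4 of 5 translocation and 2 of 6 Rosa26 tumours were female. CPM is a read count over library size, scaled by trimmed mean of M values (TMM) across the 12 libraries, a scale on which levels of 1 gene may be compared between samples but not levels of different genes. In bulk tissue, fewer cells that express a gene and less RNA per cell cannot be told apart.

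Promoter windows are shown because the DNA-binding end of the fusion comes from ATF1, a factor of the CREB family that binds the cAMP response element (CRE), and because light chain genes of contractile cells are known targets of serum response factor at CArG boxes. The windows run from 250 bases before to 50 after each RefSeq start on GRCm38.p6 (mm10), and all 7 genes had one. A full CRE (TGACGTCA) was found in 1 of the 7, Myl6, and in 1.79% of 32851 promoters of the same length. The half-site TGACG outside a full CRE was found in Myl12a, against 20.8% of promoters that hold TGACG on either strand, full CREs included. A CArG box was found in Myl9, against 1.63% of promoters, and a second RefSeq start of Myl6 also held one. None of these 3 motifs lay in a heavy chain window. The heavy chain windows held the CCAAT box, with 2 copies in Myh9, 3 in Myh10 and 4 in Myh14 (and 1 in Myl6), a motif that 37.4% of promoters carry on either strand. In the stretches printed here, 5′ to 3′ along the gene's own strand, capitals mark the motif, and ATTGG is CCAAT read on the opposite strand. A match of letters is a description and says nothing of binding.
Myl6, CRE, chr10:128493889-128493918, minus strand, 21 bases upstream of the start: acggcggagggTGACGTCAtgcgccatggg
Myl12a, CRE half-site, chr17:71002563-71002592, minus strand, 46 bases upstream: agggccagtcacgTGACGtccgcggcccgg
Myl9, CArG box, chr2:156775293-156775322, plus strand, 161 bases upstream: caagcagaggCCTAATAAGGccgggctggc
Myh10, CCAAT box, chr11:68691884-68691913, plus strand, 18 bases upstream: tcgggagcgggagCCAATgagcatcattcc
Myh10, CCAAT box, chr11:68691849-68691878, plus strand, 53 bases upstream: agcagcctatgagATTGGgagtctgtgggt
Myh14, CCAAT box, chr7:44670880-44670909, minus strand, 53 bases upstream: gcagcaagtgctgATTGGtctgtaatgcct

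Myh10 (ENSMUSG00000020900, chromosome 11, 68691559 to 68816632, plus strand, mm10) had the clearest pattern of the set. It was low in every translocation tumour, at 7.29, 11.4, 13.1, 5.96 and 6.05 CPM in tumours 1 to 5. The Rosa26 tumours held 24.2, 88.7, 95.9, 54.2, 54.3 and 81.7 CPM in tumours 1 to 6. The highest translocation tumour lay below the lowest Rosa26 tumour, and the same held for CPM without TMM scaling, where those values were 16.2 and 28.7. Group means were 8.75 ± 3.27 (SD, n = 5) and 66.5 ± 27.1 CPM (SD, n = 6), a 7.60-fold ratio, and the fitted log2 fold change of translocation over Rosa26 was −2.90 ± 0.40 (SE). That difference chose the set and is not a test of it. Over 19 other settings of the comparison it ran from −3.10 to −2.59. The muscle library, at 80.7 CPM, lay inside the Rosa26 range and above all translocation tumours. Among the Rosa26 tumours the spread was 3.96-fold, with tumour 1 alone below 54 CPM.

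Myh9 (ENSMUSG00000022443, chromosome 15, 77760587 to 77842175, minus strand) was the heavy chain with the most reads in every tumour. The translocation tumours held 313, 328, 298, 296 and 128 CPM. The Rosa26 tumours held 366, 348, 519, 1193, 546 and 360 CPM, and the muscle 96.4. On this scale the genotypes did not overlap, but translocation tumour 2 and Rosa26 tumour 2 were separated by 328 against 348 CPM, and without TMM scaling the ranges crossed (highest translocation 369, lowest Rosa26 356). The log2 fold change of translocation over Rosa26 was −0.99 ± 0.41 (SE), a smaller difference than that of Myh10 with as wide an error. Rosa26 tumour 4 and translocation tumour 5 set much of it: the value was −0.58 without the former and −0.81 without the latter, and −0.47 without both and translocation tumour 2. With sex as a covariate it was −1.47. Translocation tumour 5 was the only male of its genotype and Rosa26 tumours 1 and 4 the only females of theirs. Sex is thus partly confounded with the libraries that set the difference. A list of 7 fibroblast genes had its highest sum, 98491 CPM, in Rosa26 tumour 4 and its lowest tumour sum, 250.0 CPM, in translocation tumour 5, and ran from 1923 to 22260 CPM in the other tumours. The sum in Rosa26 tumour 4 was mostly the collagens Col1a1 (49306 CPM), Col1a2 (37551) and Col3a1 (11289). Dcn, Lum, Pdgfra and Postn each had their highest value in another tumour. Lum, Pdgfra and Postn also had their lowest tumour value outside translocation tumour 5. The part of these genes in the Myh9 level was not tested. Among the Rosa26 tumours, tumour 4 had the highest Myh9 but the lowest epithelial (12.8 CPM) and neuronal (105.2 CPM) sums.

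Myh14 (ENSMUSG00000030739, chromosome 7, 44605803 to 44670843, minus strand) had the lowest level per length of the heavy chains in every tumour but translocation tumour 2, and the highest in the muscle. The translocation tumours held 1, 23, 10, 3 and 43 reads, or 0.096, 10.1, 0.406, 0.155 and 2.0 CPM. The Rosa26 tumours held 20.1, 34.6, 30.8, 6.82, 2.68 and 18.9 CPM, and the muscle 228 CPM. The groups overlapped through translocation tumour 2, which lay above Rosa26 tumours 4 and 5. The log2 fold change of translocation over Rosa26 was −3.13 ± 1.14 (SE), −4.71 without translocation tumour 2, and −6.42 without translocation tumours 2 and 5 and Rosa26 tumour 4. That tumour also carried the highest skeletal muscle sum of its group (3326 CPM), and the part of muscle reads in its Myh14 value was not tested.

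**Figure D1:**
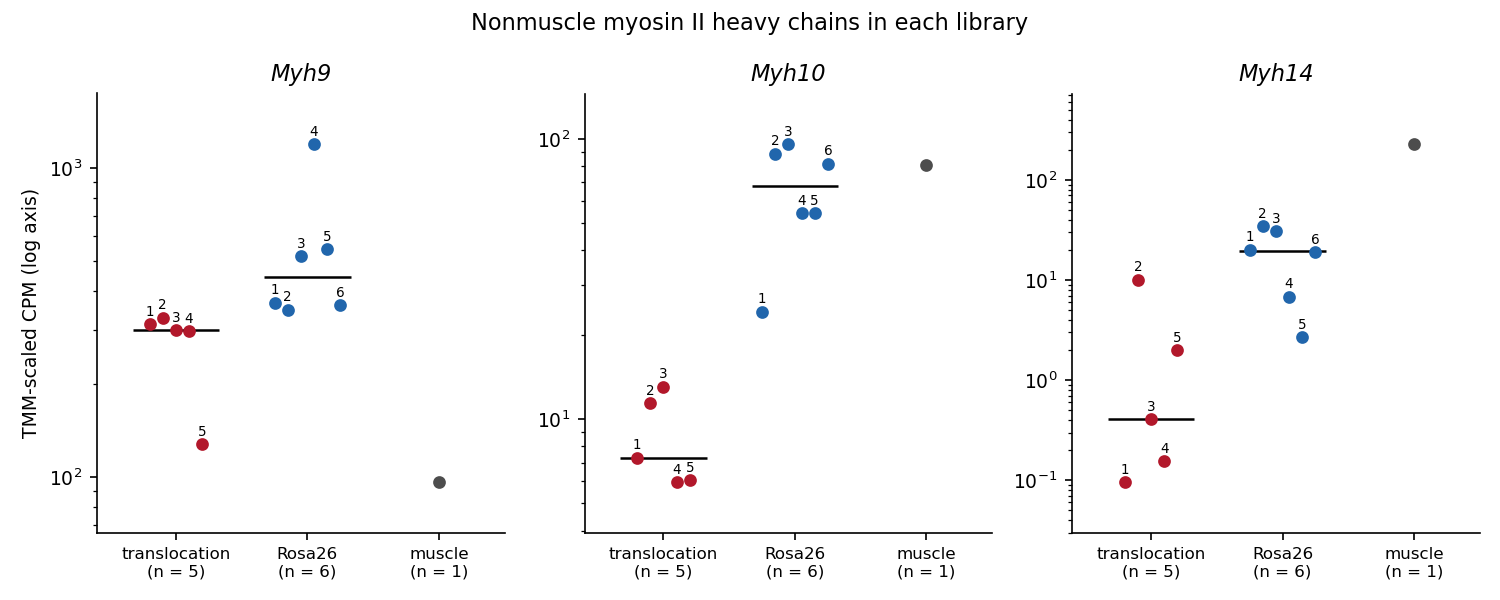
TMM-scaled CPM (log axis) of the heavy chain genes Myh9, Myh10 and Myh14 in each library, with points numbered by tumour and a bar at the median of each tumour genotype. All 5 translocation tumours lie below all 6 Rosa26 tumours for Myh10, narrowly so for Myh9, and for Myh14 translocation tumour 2 lies above Rosa26 tumours 4 and 5.

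Of the 7 rows that passed the filter on low counts, 1, Myh10, was called between the genotypes by edgeR's quasi-likelihood test at an adjusted p of 0.05, as were 2.7% of the 17021 genes tested (1.56% lower in the translocation tumours). Myh9 and Myh10 were the members without overlap between the genotypes on the TMM scale, as were 5.32% of genes (3.12% with the translocation tumours lower). Both counts come from the comparison that chose the set, and nothing is read from them. With DESeq2, 2 members were called (Myh10 and Myh14) beside 11.6% of all genes.

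The heavy chain make-up was computed as each gene's share of the summed CPM per kilobase of its longest transcript, a scale on which genes can be compared. Myh9 made up 97.8, 93.6, 95.8, 98.1 and 94.1% in translocation tumours 1 to 5. In the Rosa26 tumours its share ran from 73.7 to 95.2% with a median of 84.6%. The ranges overlapped through Rosa26 tumour 4, whose Myh9 level was the highest of all. Myh10 made up 3.08 ± 1.06% (SD, n = 5) in the translocation and 11.2 ± 5.92% (SD, n = 6) in the Rosa26 tumours. By this share the 2 genotypes touched, since Rosa26 tumour 4 (4.13%) lay below translocation tumour 5 (4.25%). In the muscle the order was turned, with 60.1% Myh14, 22.2% Myh9 and 17.7% Myh10.

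**Figure D2:**
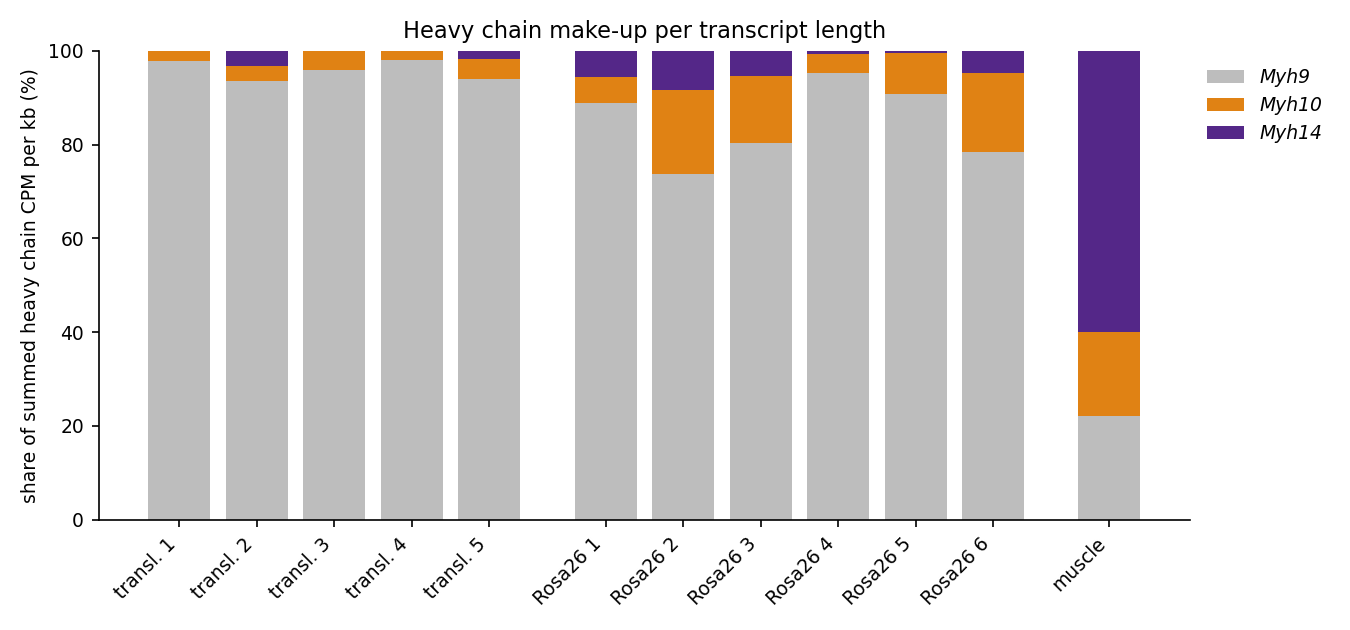
Share of each heavy chain gene in the summed heavy chain CPM per kilobase of longest transcript, in percent, 1 bar per library. Myh9 fills 93.6 to 98.1% of the translocation bars and 73.7 to 95.2% of the Rosa26 bars, and Myh14 fills 60.1% of the muscle bar.

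Lists of genes that mark other cell types also differed between the tumours. A list of 6 epithelial genes (Cdh1, Epcam, Krt5, Krt8, Krt14 and Krt18) summed to 1.25, 2.19, 1.34, 21.9 and 28.5 CPM in the translocation tumours. In the Rosa26 tumours the sum was 78.0, 310, 257, 12.8, 35.0 and 175 CPM, and 11.8 in the muscle. Rosa26 tumours 2, 3 and 6 were the 3 highest for this sum and for Myh10, and Rosa26 tumours 1, 2, 3 and 6 the 4 highest tumours for this sum and for Myh14. Krt8, a keratin of simple epithelia, had a highest value of 0.438 CPM in the translocation tumours and ran from 1.57 to 64.4 in the Rosa26 tumours, while Krt5, a basal keratin, stayed at or below 4.46 in all. In Rosa26 tumour 4, with 29.999% of its counts on genes of ribosomal sequence, the epithelial sum was 12.8 CPM and Myh10 54.2 CPM. Translocation tumours 4 and 5 had sums of 21.9 and 28.5 CPM and Myh10 at 5.96 and 6.05 CPM. A list of 6 neuronal genes summed to 77.9 to 209 CPM in the translocation and 105.2 to 676 CPM in the Rosa26 tumours, again with Rosa26 tumours 2, 6 and 3 highest. Endothelial genes (8) summed to 366 to 1378 CPM in the translocation and 273 to 476 CPM in the Rosa26 tumours, but the higher sum lay in Kdr (mean 405 against 123 CPM) and Egfl7 (364 against 66.2). The means of the other 6 were lower in the translocation tumours, such as Pecam1 at 32.3 against 66.6 and Cdh5 at 18.1 against 51.3 CPM. How much of the heavy chain reads came from cells of these types was not tested.

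**Figure D3:**
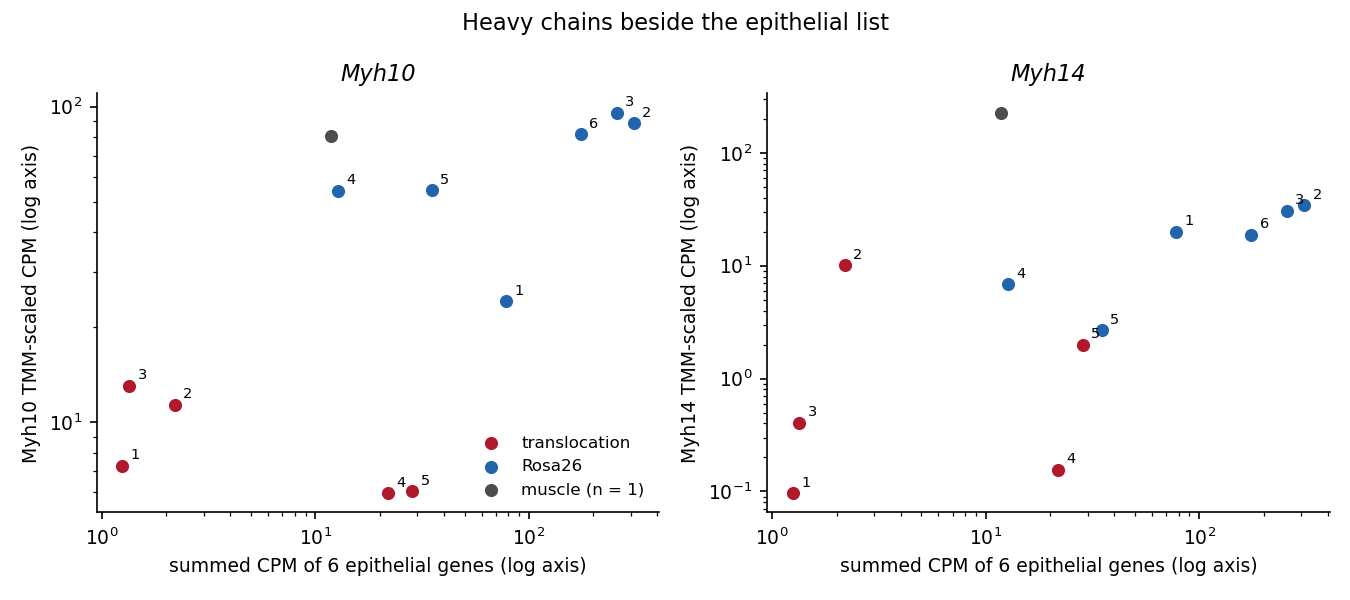
Myh10 and Myh14 TMM-scaled CPM against the summed CPM of 6 epithelial genes in each library (both axes logarithmic), with points numbered by tumour. Rosa26 tumours 2, 3 and 6 are highest for the sum and for Myh10, and Rosa26 tumour 4, with a sum of 12.8 CPM, holds 54.2 CPM of Myh10.

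The genotypes overlapped for all 3 regulatory light chains. Myl9 (ENSMUSG00000067818, chromosome 2, 156775420 to 156781658, plus strand), the form typical of smooth muscle and contractile stroma, held 7.29, 0.876, 13.2, 15.7 and 6.32 CPM in the translocation tumours. The Rosa26 tumours held 9.54, 4.97, 10.3, 3.85, 2.83 and 3.73 CPM, and the muscle 5.96. The groups overlapped, with both the lowest and the highest value among the translocation tumours, and the log2 fold change was 0.61 ± 0.57 (SE). Genes of smooth muscle and pericytes, 9 in number, summed to 323 to 2161 CPM in the translocation tumours and to 364 to 668 CPM in the Rosa26 tumours. The highest sum, in translocation tumour 3, was mostly the pericyte gene Rgs5 (1949 of 2161 CPM). The means of 7 of the 9 genes were lower in the translocation tumours, such as Notch3 at 22.8 against 42.7 CPM. Their part in the Myl9 level was not tested.

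Myl12a and Myl12b are adjacent genes on the minus strand of chromosome 17 that encode nearly identical regulatory light chains of nonmuscle cells. Myl12a (ENSMUSG00000024048, 70993656 to 71002878) held 47.1, 25.8, 117, 134 and 66.2 CPM in the translocation tumours. In the Rosa26 tumours the values were 68.5, 53.0, 64.5, 34.6, 40.1 and 72.6 CPM, all within the translocation range, and the muscle 506. The log2 fold change was 0.53 ± 0.38 (SE). Myl12b (ENSMUSG00000034868, 70973133 to 70990890) held 21.5, 8.76, 25.05, 27.4 and 23.7 CPM in the translocation tumours. Rosa26 tumours 1 to 6 held 24.0, 29.4, 33.6, 20.1, 27.4 and 27.1 CPM, a narrow range that overlapped the other, and the muscle 2.44. The log2 fold change was −0.30 ± 0.28 (SE). The second Myl12b row (ENSMUSG00000117098, 70974119 to 71002208) lies wholly on exons of its neighbours, with 739 of its 1201 exon bases in Myl12b and 462 in Myl12a. It held at most 7 reads in a library, did not pass the filter and was not tested. Reads of these 3 rows may be shared between them.

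Myl6 (ENSMUSG00000090841, chromosome 10, 128490860 to 128494145, minus strand) encodes the essential light chain that binds all 3 heavy chains. The translocation tumours held 177, 277, 338, 352 and 167 CPM. Among the Rosa26 tumours, CPM was 131, 278, 162, 189, 138 and 199 CPM, and the muscle 100.3. The groups overlapped, and the log2 fold change was 0.56 ± 0.30 (SE). Per kilobase of longest transcript, Myl6 made up 61.1 ± 12.7% (SD, n = 5) of light chain signal in the translocation and 56.1 ± 9.47% (SD, n = 6) in the Rosa26 tumours. Myl12a made up 26.6 ± 8.68% and 27.0 ± 6.65%, Myl12b 7.27 ± 2.92% and 11.99 ± 2.35%, and Myl9 5.03 ± 2.47% and 4.93 ± 2.71%. The Myl6 share rests on a transcript of 3040 bases, while its principal coding transcript has 665, and with principal lengths it was 87.2 and 84.9%. With those lengths Myl12a made up 8.73 and 9.29%, Myl12b 2.38 and 4.07% and Myl9 1.67 and 1.73%. The full CRE shown above lies at the promoter of this gene. The part of that motif in the Myl6 level was not tested.

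**Figure D4:**
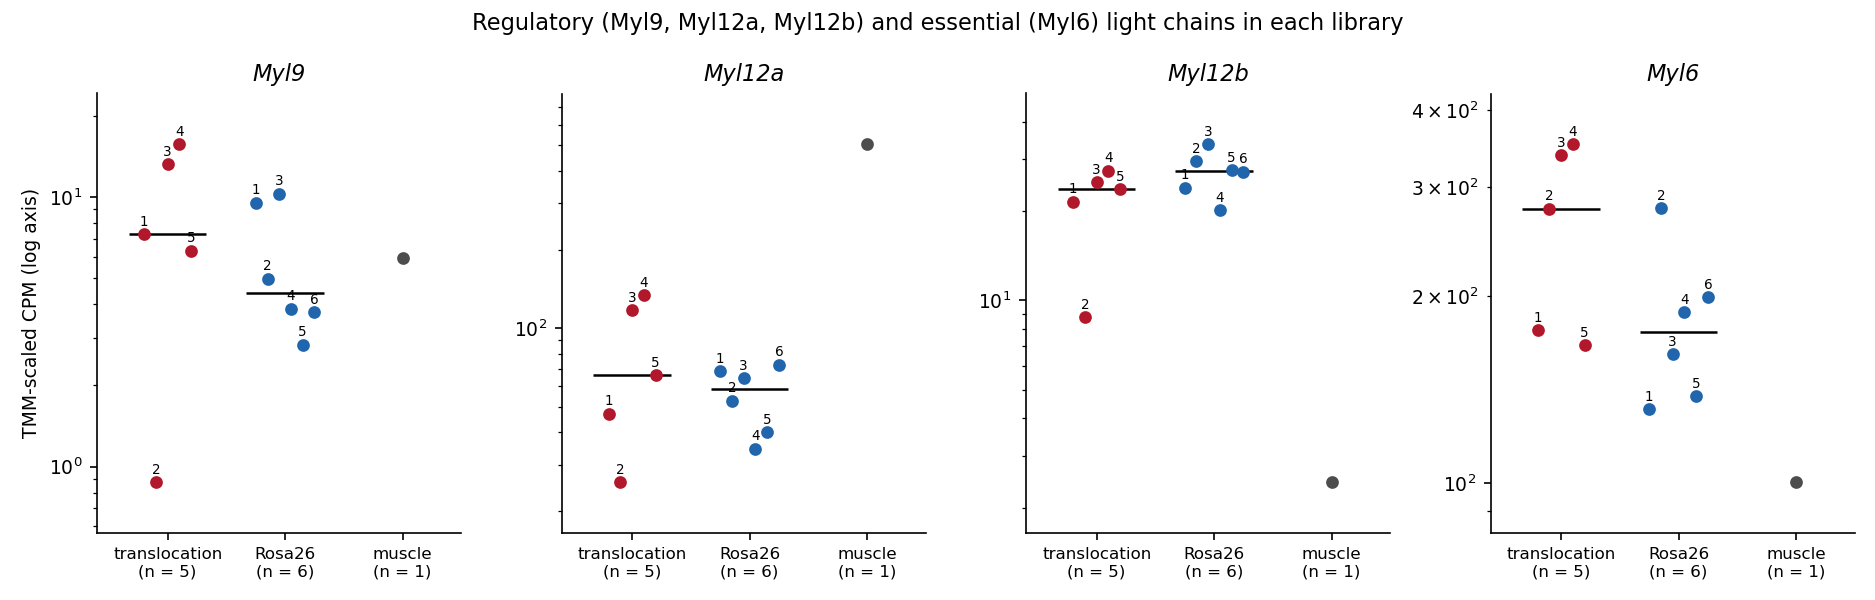
TMM-scaled CPM (log axis) of the regulatory light chain genes Myl9, Myl12a and Myl12b and of the essential light chain gene Myl6 in each library, with points numbered by tumour and a bar at the median of each tumour genotype. The genotypes overlap in all 4 panels, and the muscle lies above all tumours for Myl12a and below all for Myl12b.

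Among the members, some pairs ran together over the 11 tumours. On log2 CPM, Pearson's r was 0.77 between Myh10 and Myh14, 0.62 between Myh9 and Myh10, 0.29 between Myh9 and Myh14, 0.85 between Myl9 and Myl12a and 0.72 between Myl9 and Myl12b. Between the heavy chains and Myl9, Myl12a or Myl6 it lay between −0.44 and −0.20. Myl12b had 0.36 with Myh10 and values near 0 with Myh9 (−0.013) and Myh14 (−0.008). These values describe libraries that share genotype, depth and tissue make-up, and carry no p.

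The genes most like Myh10 over the 11 tumours were Hbegf (r = 0.97), Adamtsl1 (0.97), Nlgn1 (0.97), Tpsg1 (0.96) and Gfra1 (0.96), a growth factor, a matrix protein, a synaptic adhesion protein, a mast cell protease and a GDNF receptor. Much of such an r lies between the genotypes, and within the 6 Rosa26 tumours it was 0.85, 0.89, 0.89, 0.78 and 0.93. Within the 5 translocation tumours it was 0.74, 0.54, 0.83, 0.67 and −0.0079. In these tumours Nlgn1 was at most 0.876 CPM and Tpsg1 at most 0.081 CPM, so their r there rests on few reads. Hbegf stood at 13.2 ± 5.46 CPM (SD, n = 5) in the translocation and 92.0 ± 46.7 CPM (SD, n = 6) in the Rosa26 tumours. The genes most like Myh9 were Mapkbp1 (0.98), Rgp1 (0.98), St6galnac4 (0.97), Ctdsp1 (0.97) and Myo9b (0.97), the last an unconventional myosin, with 0.96 to 0.99 within the Rosa26 and 0.93 to 0.99 within the translocation tumours. Those most like Myl9 were Hpgd (0.92), Slc25a40 (0.91), Zfp52 (0.91), Klhl4 (0.91) and Ptgs2 (0.90), with 0.67 to 0.89 within the Rosa26 and 0.92 to 0.99 within the translocation tumours. Hpgd and Ptgs2 break down and make prostaglandins. Myl9 and the 5 genes most like it all had their lowest translocation value in tumour 2, the shallowest library, which held 2 Myl9 reads. Hpgd, Klhl4 and Ptgs2 were at 0 CPM there, so the r within the translocation tumours leans on that library. All 5 Myh9 likenesses shared its highest sample, Rosa26 tumour 4, and its lowest, translocation tumour 5.

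Against muscle, the tumours differed in which isoforms they carried. This comparison did not choose the set, but the tumour counts of Myh10, which did, enter it again. Of the 7 members tested, 4, Myh10 among them, were called at an adjusted p of 0.05 and a log2 fold change of at least 1. By the same edgeR quasi-likelihood test, 16.6% of 22184 genes were called. Only 1 muscle library was available, so the spread came from the tumours and the muscle was assumed to vary like them. The median log2 fold change of all genes was 0.70 on the TMM scale, to which the values below may be compared.

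Myh14 was lower in the tumours, by −5.21 ± 1.12 on the log2 scale (SE, adjusted p = 0.00827, edgeR). All 11 tumours lay on the low side of the muscle for Myh14, and 38.7% of genes had all 11 on 1 side. Fitted alone, the Rosa26 tumours were called (−3.60, adjusted p = 0.0147, edgeR) and the translocation tumours were not (−6.81, adjusted p = 0.0848). Myh10 was lower by −1.75 ± 0.52 (SE, adjusted p = 0.0385, edgeR), but that mean joins unlike genotypes. Its low translocation counts also chose the set, so the Myh10 p-values here are not independent of that choice and serve as a description. Fitted alone, the translocation tumours differed from muscle by −3.27 (adjusted p = 0.0292) and the Rosa26 tumours by −0.29 (adjusted p = 0.723), and 3 Rosa26 tumours lay above the muscle. The pooled call for Myh10 was lost without translocation tumour 1 or 4 or Rosa26 tumour 5 or 6, at adjusted p from 0.0536 to 0.0582, and without the filter on low counts, at 0.0639. Myh9 lay above the muscle in all 11 tumours, with a log2 fold change of 2.01 ± 0.82 (SE) that edgeR did not call (adjusted p = 0.115), while DESeq2 did (adjusted p = 0.0331).

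Of the light chains, Myl12a was lower in the tumours by −2.94 ± 0.52 (SE, adjusted p = 0.00274, edgeR) and Myl12b higher by 3.29 ± 0.67 (SE, adjusted p = 0.00575, edgeR), each with all 11 tumours on the same side of the muscle. By the genotypes alone, both were called in the Rosa26 tumours and neither in the translocation tumours, where the adjusted p was 0.107 and 0.123 with log2 fold changes of −2.75 and 3.07. Myl12a shares 207 exon bases, 6.16% of its exons, with the antisense gene Myom1, a sarcomere gene at 9450 CPM in the muscle and between 3.47 and 687 CPM in the tumours. No source used here gives the strand setting of the counting, so reads of Myl12a and Myom1 in the muscle cannot be told apart over those bases. Myl6 (log2 fold change 1.13 ± 0.58, SE, adjusted p = 0.200, edgeR) and Myl9 (0.27 ± 1.03, SE, adjusted p = 0.874, edgeR) did not pass.

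The regulators and partners of the motor were read in 5 lists of 53 genes, all of which passed the filter in both comparisons. Between the genotypes edgeR called 0 of 53, against 2.7% of all genes, and 10 of 53 had an unadjusted p under 0.05, against 24.8% of all genes. DESeq2 called 8, all lower in the translocation tumours, against 11.6% of all 21591 genes it tested (1304 lower and 1210 higher). The median log2 fold change of the 53 genes was −0.31, beside 0.07 over all 17021, and 34 of 53 had a negative value. Single calls appeared when 1 library was left out: Ccn2 without translocation tumour 2, Limch1 and Myocd without translocation tumour 5, and Actn4 without Rosa26 tumour 1. With sex as a covariate 6 of 53 were called, among them Myocd and Myh11, beside 2534 of all 17021 genes.

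Among 18 upstream regulators of the motor the median was −0.45. Mylk, the calmodulin-dependent light chain kinase, had −0.77 ± 0.39 (SE). The smallest adjusted p values of this list belonged to Arhgef12, an exchange factor (−0.83 ± 0.25, SE, adjusted p = 0.0792, edgeR), and to Cdc42bpa, a Cdc42-dependent kinase of the light chain pathway (−0.91 ± 0.32, SE, adjusted p = 0.118, edgeR). Arhgef12 ranges did not overlap, as for 5.32% of genes, at 119 to 150 CPM in the translocation and 160 to 305 in the Rosa26 tumours. Both were called by DESeq2.

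The 7 genes of the myosin phosphatase had a median of 0.12 and the smallest adjusted p was 0.276 (edgeR). Ppp1r12a, the myosin-binding subunit, stood at 112 ± 31.9 and 114 ± 17.5 CPM. Ppp1r14a, an inhibitor of the phosphatase, reached 19.6 CPM in translocation tumour 5 and at most 2.07 in the other tumours. Its log2 fold change of 2.16 ± 1.17 (SE) became −0.52 without that tumour. Ppp1r14c, a related inhibitor, was at 28.8 CPM in Rosa26 tumour 1, the tumour with the highest skeletal muscle sum, and at most 2.33 in the others, with 133 in the muscle.

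Among 14 filament partners the median was −0.26. Actb and Actg1, the cytoplasmic actins on which the motor pulls, had log2 fold changes of −0.034 ± 0.32 and 0.25 ± 0.36 (SE). Actn4, an actin crosslinker, was at 88.9 ± 19.97 CPM (SD, n = 5) against 167 ± 37.3 CPM (SD, n = 6), a difference of −0.87 ± 0.25 on the log2 scale (SE, adjusted p = 0.0712, edgeR). Limch1, which binds and activates nonmuscle myosin IIA, was at 65.3 ± 44.4 against 205 ± 88.0 CPM, with −1.61 ± 0.48 (SE, adjusted p = 0.0794, edgeR).

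Among 11 genes of the serum response factor (SRF) axis the median was −0.31. Srf itself had −0.64 ± 0.39 (SE), with 1 high value, 35.9 CPM in Rosa26 tumour 4. Its actin-sensing coactivators Mrtfa and Mrtfb had −0.31 ± 0.47 and −0.75 ± 0.23 (SE). On the TMM scale Mrtfb ranges did not overlap, at 24.3 to 33.2 CPM against 34.1 to 72.1, as for 5.32% of genes. The gap was narrow, and without TMM scaling the Mrtfb ranges crossed. Myocd, the muscle coactivator, was at most 0.512 CPM in the translocation tumours and 0.498 to 5.07 in the Rosa26 tumours (adjusted p = 0.0618, edgeR). Ccn2, a target of the axis and of YAP, held 29.2, 67.9, 32.1, 7.26 and 37.8 CPM in the translocation tumours and 56.9 to 351 CPM, with 1 of 6 below 67.9, in the Rosa26 tumours. Its log2 fold change was −2.27 ± 0.60 (SE, adjusted p = 0.0615, edgeR). Mrtfb, Myocd and Ccn2 were called by DESeq2.

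Of 3 relatives, the smooth muscle heavy chain Myh11 was at 3.90 ± 2.68 CPM (SD, n = 5) against 16.4 ± 12.9 CPM (SD, n = 6), a difference of −2.04 ± 0.64 on the log2 scale (SE, adjusted p = 0.0878, edgeR). Myh11 also belongs to the smooth muscle and pericyte list, of which 7 of 9 genes, Myh11 included, had lower means in the translocation tumours. The medians of its sum were 449 and 554 CPM. Myl6b, an essential light chain close to Myl6, was between 0.096 and 3.06 CPM in the tumours, and Myo18a, an unconventional myosin, had −0.57 ± 0.50 (SE).

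**Figure D5:**
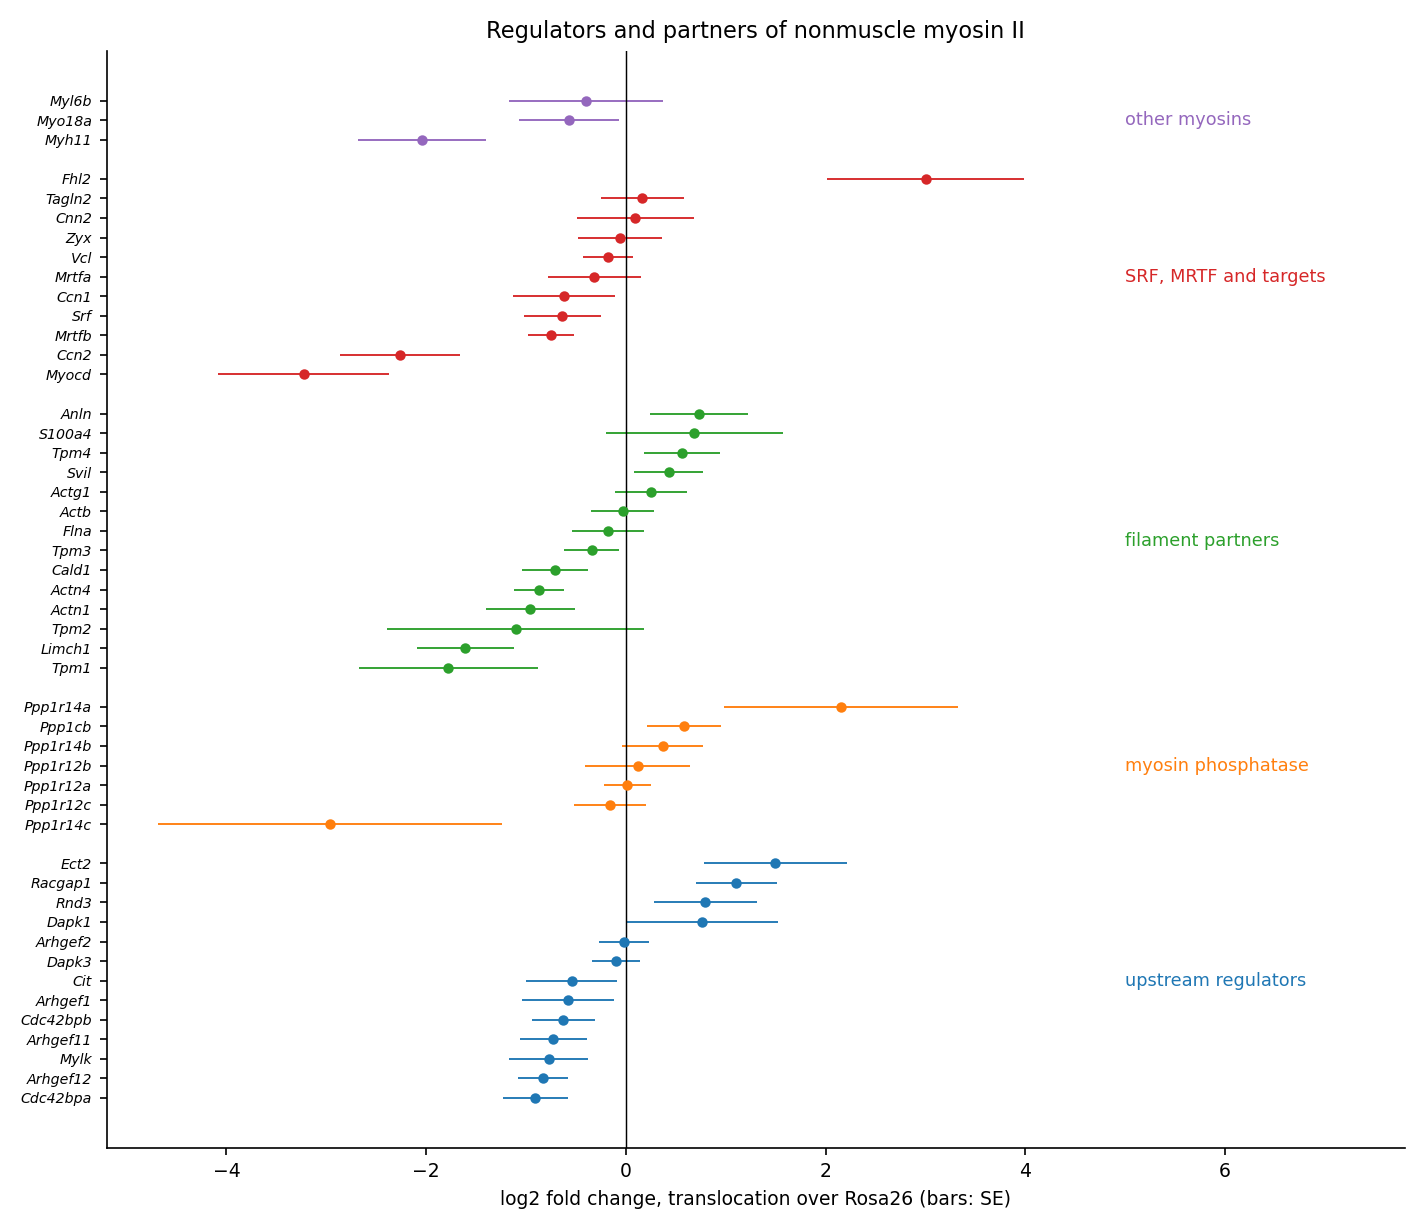
Log2 fold change of translocation over Rosa26 tumours with its standard error for regulators and partners of nonmuscle myosin II, grouped by list, with 5 of the 53 genes not drawn. Points lie on both sides of 0, with Myocd lowest at −3.23 and Fhl2 highest, and edgeR's quasi-likelihood test called 0 of them after adjustment over all genes.

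Against muscle, 19 of the 53 were called by edgeR, 7 higher and 12 lower in the tumours, beside 5.25 and 11.4% of all genes. The higher ones included Tpm4, a tropomyosin of nonmuscle filaments (log2 fold change 4.34 ± 0.95, SE, adjusted p = 0.00909, edgeR), the crosslinker Flna (3.49 ± 0.85, SE, adjusted p = 0.0154, edgeR), Cald1 (2.79 ± 0.71), Actg1 (2.67 ± 0.79) and Actn4 (1.99 ± 0.51). Tagln2 and Racgap1 were the other two. The lower ones included the sarcomeric tropomyosin Tpm1 (−5.45 ± 1.01, SE, adjusted p = 0.00354, edgeR), Tpm2 and Tpm3. They also included the phosphatase genes Ppp1r12b (−4.54 ± 0.63, SE, adjusted p = 0.000598, edgeR), Ppp1cb (−3.64 ± 0.49) and Ppp1r14c, and Srf (−2.29 ± 0.52, SE, adjusted p = 0.0110, edgeR). Ppp1r12b is the striated muscle form of the myosin-binding subunit. Svil, Vcl, Ccn1, Dapk3 and Myo18a completed the 12. The call of Racgap1 was lost without Rosa26 tumour 2, 3, 5 or 6 (adjusted p 0.0541 to 0.0584, edgeR), that of Dapk3 without translocation tumour 3 or Rosa26 tumour 3, 5 or 6 (0.0501 to 0.0573), and that of Vcl without Rosa26 tumour 5 or 6 (0.0519 and 0.0532). Actg1 was not called without translocation tumour 4 or Rosa26 tumour 2, 3, 5 or 6.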

How the data were processed

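The authors deposited raw counts for 55536 Ensembl genes in 12 columns, and 0 columns belonged to no labelled sample. Per the submitters' processing notes, the build was mm10 and the tools were STAR 2.7.5a, cutadapt, RSEM, featureCounts and DESeq2, in no stated role or order, and a stranded kit was used, per the labels' protocols. No source used here gives the annotation release, the strand setting or the handling of multiply mapping reads. Symbols, positions and lengths came from GENCODE M21, and promoters from RefSeq (GRCm38.p6).

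The members and lists were chosen with earlier results of these data known. The 11 tumours were fitted in R 4.3.3 with edgeR 4.0.16 (TMM, filterByExpr at a minimum count of 10, quasi-likelihood tests, Benjamini-Hochberg adjustment at 0.05). For muscle, 12 libraries were fitted and the average of the 2 genotype means was set against the muscle, and calls needed a log2 change of 1 or more in size. The scripts were tested on simulated data. Likeness used log2 CPM with a prior count of 2.

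Named genes were all members, up to 6 called genes per list or else the 2 with the smallest adjusted p, set regulators whatever their values (some are not reported here), and the 5 genes most like Myh10, Myh9 and Myl9. Names given only to complete a count were added after their values were seen, as was Arhgef12's and Mrtfb's lack of overlap on the TMM scale.

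Replicate numbers are accession order only. Separate animals are not stated, so the p-values reflect sample-to-sample spread alone, some of which may be technical. Titles of translocation tumours 2 and 5 share a stem, as do those of translocation tumour 1 and the muscle. Those of Rosa26 tumours 5 and 6 differ only in the last digit. By Xist and Y-linked reads translocation tumour 2 was female and translocation tumour 5 male, so the reads place these in animals of different sex. The other pairs matched in sex, and whether either of them shares an animal is not stated. A chi-square test over genes separated all 55 tumour library pairs: the closest pair, Rosa26 tumours 3 and 6, had a median of 5.24 where sampling alone gives 0.455. Alternatives were DESeq2 1.42.0 (its size factors, and its Wald test), other filters, sex as a covariate, samples left out or summed, and other transcript lengths.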

Additional observations from a re-analysis of the deposited data

Results flagged for a closer look

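In 70 groups of 5 or 6 samples, 8 had an end value set apart from the rest by more than Dixon's 95% limit. For independent normal values chance gives about 1 in 20 groups. Here the CPM were not logged and the groups reuse the same libraries, so the 8 cannot be set against that rate. Myh9 was set apart in both genotypes, at 128 CPM in translocation tumour 5 (nearest 296) and at 1193 CPM in Rosa26 tumour 4 (nearest 546). Srf was also highest in Rosa26 tumour 4, at 35.9 CPM (nearest 14.9), and 29.999% of that library's counts fell on genes of ribosomal sequence. Myh14 was 10.1 CPM in translocation tumour 2 (nearest 2.0). In the same library the light chain share of Myl9 was lowest, at 0.710%, and that of Myl6 highest, at 83.4%. It was the shallowest library, at 2.96 M counts, and 37.8% of its counts fell on genes of ribosomal sequence. Ppp1r14a was 19.6 CPM in translocation tumour 5 (nearest 2.07) and Ppp1r14c was 28.8 CPM in Rosa26 tumour 1 (nearest 2.33), the tumour with a skeletal muscle sum of 33620 CPM.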

How the results depend on the processing

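The 460 genes called between genotypes became 2514 with DESeq2's test, 2534 with sex as a covariate, 91 with Rosa26 tumours 5 and 6 summed, 27 without the 3 libraries with skeletal muscle reads (chosen after seeing the data) and 63 to 744 when 1 tumour was left out. The share of calls higher in translocation tumours was 42.2% and ran from 11.1 to 61.2%. Members called (1) became 2 with DESeq2, with sex, and without translocation tumours 2 and 5 and Rosa26 tumour 4, and were 1 to 2 with 1 tumour out. List genes called (0) became 8 with DESeq2, 6 with sex and 0 to 2 with 1 tumour out. Against muscle, 3686 calls became 721 for translocation tumours alone, 6523 for Rosa26 tumours alone and 2838 to 5987 with 1 tumour out, highest without translocation tumour 5. For translocation tumours alone, 1 member and 7 list genes were called. With principal lengths the Myl6 share was 87.2% (translocation) and 84.9% (Rosa26).

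Some log2 fold changes between genotypes changed sign. Actb became 0.058 with sex, 0.047 without the muscle-read libraries, and −0.19 to 0.11 with 1 tumour out (0.0020, 0.11 and 0.031 without translocation 1, 2 and Rosa26 4). Actg1 was −0.14 to 0.43 with 1 tumour out, lowest without translocation 5, and −0.027 without translocation 2 and 5 and Rosa26 4, where Mrtfa became 0.014. Ppp1r12a became −0.0041 and −0.0071 with DESeq2's scaling and test, −0.035 without a filter, −0.18 without those 3 libraries, and −0.18 to 0.073 with 1 tumour out. Ppp1r14a was −0.32 without those 3 and −0.52 to 2.47 with 1 tumour out. Myl9 against muscle was −0.032 for Rosa26 tumours alone. The causes were not tested. No paired analysis was possible because the replicate numbers only follow accession order and no shared animal is stated. Depth limits Myh14, with 1 to 43 reads per translocation library.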
